A study of Homo sapiens with 4 samples.

Results

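FOXA1, FOXA2, GATA6, CEBPA, ELF3, KLF4, KLF5 and SOX2 are transcription factors that set or maintain the identity of epithelial cells. They were chosen by name, as 8 of the 26255 gene symbols measured, and their RNA was compared over 4 libraries of A549 cells. All 8 had a mean of at least 1 FPKM (a fragment count divided by transcript length and library depth) and so counted as expressed, together with 12663 genes in all. The lowest mean among the 8 was that of GATA6, at 2.00 FPKM, so no factor lay below the limit.

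A549 is an established human lung adenocarcinoma line, wild type by its label. The cells were grown for 5 days in DMEM with 5% serum, either on solidified Matrigel, a gelled basement membrane extract (3D), or on an ordinary dish (2D). Each culture was held under 1% oxygen (hypoxia) or under normoxia. The 4 groups were thus 3D hypoxia, 3D normoxia, 2D hypoxia and 2D normoxia, with 1 library each, made to describe structures, abbreviated MLSs by the submitters, that hypoxia induces. A single cell line without replicate libraries limits every comparison below to these 4 cultures.

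FOXA1 and FOXA2 are forkhead pioneer factors that open chromatin in foregut-derived epithelia such as lung and liver. GATA6, a zinc finger factor, acts beside them in lung endoderm, and CEBPA, a basic leucine zipper factor, promotes differentiation and restrains proliferation in lung and liver epithelium. ELF3 is an epithelium-restricted ETS factor, and KLF4 and KLF5 are Krüppel-like zinc finger factors that in gut epithelium mark differentiated and proliferating cells. SOX2, an HMG-box factor, is known for proximal airway identity and, with KLF4 and POU5F1, for reprogramming to pluripotency.

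The labels were checked against marker genes. All 6 hypoxia genes examined rose under hypoxia, with CA9, a carbonic anhydrase, at 199.7 FPKM in 3D hypoxia and 4.05 in 3D normoxia, and at 138.5 FPKM in 2D hypoxia and 4.0 in 2D normoxia. All 6 epithelial markers were expressed, from 1.43 to 2.73 FPKM for EPCAM up to 1894 to 3731 FPKM for KRT8. NKX2-1, the master factor of lung epithelium, was between 0.0388 and 0.0571 FPKM and did not count as expressed. CA9 led EGLN3, NDRG1, BNIP3, VEGFA and ANKRD37, and the call of ANKRD37 was lost on a common median (adjusted p = 0.06). Of all expressed genes 3.20% were called higher under hypoxia. The keratins KRT18 (1721 to 3720 FPKM), KRT7 and KRT19 were also abundant. By limma KRT19 was higher in 3D (1.56 ± 0.17, adjusted p = 0.00885) and KRT7 lower (-1.13 ± 0.15, adjusted p = 0.012). Of all expressed genes 10.4% were called higher in 3D and 11.6% lower. The 5 endothelial markers summed to between 0.172 and 0.475 FPKM. The depth inferred from the lowest FPKM values was about 11300000 fragments in 3D hypoxia and 11800000 in 3D normoxia, against 38900000 in 2D hypoxia and 24100000 in 2D normoxia. With 1 library a group, differences between 2 libraries carry counting errors only, and tests are those of the average effects over the 4 libraries.

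The factors spanned a wide range of levels. ELF3 stood highest in every library, between 111.8 and 176.4 FPKM, above at least 94.7% of expressed genes. KLF5 (23.5 to 48.4 FPKM) and FOXA2 (18.3 to 27.1 FPKM) followed. FOXA1 lay between 5.53 and 15.3 FPKM and CEBPA between 3.73 and 10.0 FPKM. KLF4, SOX2 and GATA6 had the lowest means, at 4.31, 2.72 and 2.00 FPKM, and in 3D SOX2 stood above only 5.46% of expressed genes in hypoxia and 6.37% in normoxia.

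**Figure D1:**
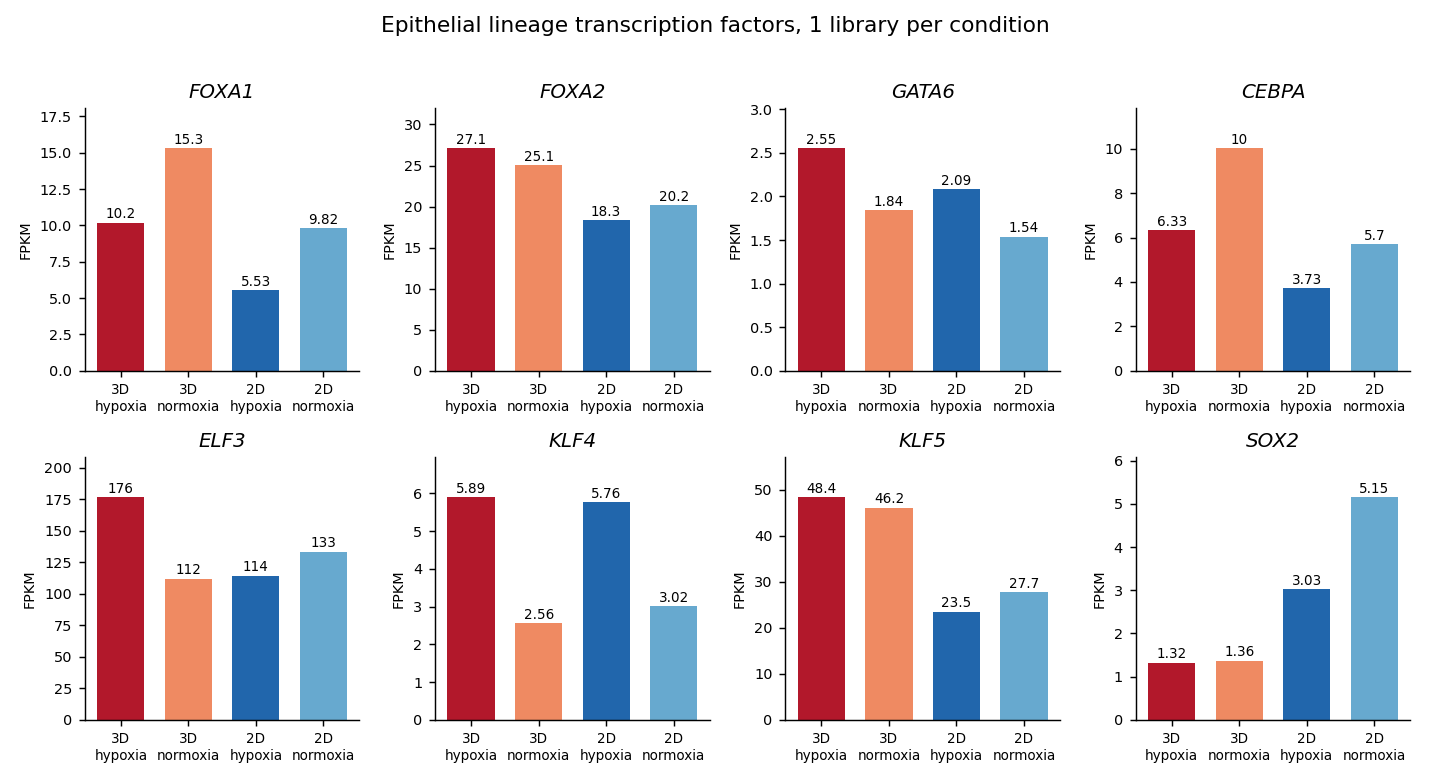
FPKM of the 8 transcription factors in each library (1 bar per library, 1 library per condition, vertical axes from 0 and scaled to each gene). FOXA1 and CEBPA share the same order of libraries, KLF4 is high in both hypoxia libraries, KLF5 in both 3D libraries and SOX2 in both 2D libraries.

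The first comparison asked how low oxygen, averaged over both cultures, changed these factors. KLF4 rose and FOXA1 fell under hypoxia, and the other 6 did not pass the test. The test was limma across all 12663 expressed genes on log2(FPKM + 1), with culture and oxygen as terms and Benjamini-Hochberg adjustment. Its 1 residual degree of freedom is the difference of the hypoxia response between cultures, so the SE holds no spread between replicates. In all, 4.84% of genes passed in either direction, 3.20% higher and 1.64% lower, beside these 2 of 8 factors. These were 405 genes higher and 208 lower, against 303 higher and 475 lower after rescaling to a common sum. At an unadjusted p below 0.05 there were 3 of the 8, against 25.6% of genes. In single pairs of libraries, 0 of the 8 differed by 2-fold or more on this scale, in 3D (2.91% of genes higher, 1.11% lower, 4.02% either way) or in 2D (2.01% higher, 1.59% lower, 3.60% either way).

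KLF4 was at 5.89 FPKM in 3D hypoxia and 2.56 in 3D normoxia, and at 5.76 FPKM in 2D hypoxia and 3.02 in 2D normoxia. Both hypoxia libraries therefore lay above both normoxia libraries, as they did for 16.7% of all expressed genes. KLF4 and GATA6 were the 2 of 8 with this order, and 0 of 8 had the reverse, which 17.5% of genes had. After rescaling to a common sum, FOXA1 and CEBPA had the reverse order. That rescaling moved the median hypoxia difference of all expressed genes by -0.125. The share of all genes with the reverse order was not counted on the rescaled values, so no background stands beside this. The average log2 difference of KLF4 was 0.85 ± 0.14 (SE, limma adjusted p = 0.0345). In linear FPKM the ratio of hypoxia to normoxia was 2.31 in 3D and 1.91 in 2D. About 188 fragments in 3D hypoxia and 85 in 3D normoxia stood behind the 3D values, and 630 in 2D hypoxia and 205 in 2D normoxia behind the 2D values. The call was lost when libraries were brought to a common median (adjusted p = 0.0524) and without the filter on low values, where limma called 0 genes in either direction.

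FOXA1 was at 10.2 FPKM in 3D hypoxia and 15.3 in 3D normoxia, and at 5.53 FPKM in 2D hypoxia and 9.82 in 2D normoxia. It was lower in hypoxia within each culture. The level in 3D hypoxia still reached that of 2D normoxia, though not after rescaling to a common sum. The average log2 difference was -0.64 ± 0.12 (limma adjusted p = 0.0472), and the linear ratio of hypoxia to normoxia was 0.665 in 3D and 0.563 in 2D. This call is close to the threshold, since it was lost under 4 of 7 alternative settings, with adjusted p between 0.0278 and 0.439 over all 8.

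CEBPA had the same order of libraries as FOXA1. It was at 6.33 FPKM in 3D hypoxia and 10.0 in 3D normoxia, and at 3.73 FPKM in 2D hypoxia and 5.70 in 2D normoxia. For both genes the level was highest in 3D normoxia and lowest in 2D hypoxia. Hypoxia over normoxia gave an average log2 difference of -0.55 ± 0.12 for CEBPA, which missed the threshold (limma adjusted p = 0.0673). It passed only after rescaling to a common sum (-0.71, adjusted p = 0.044), with limma adjusted p up to 0.439 over the 8 settings.

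**Figure D2:**
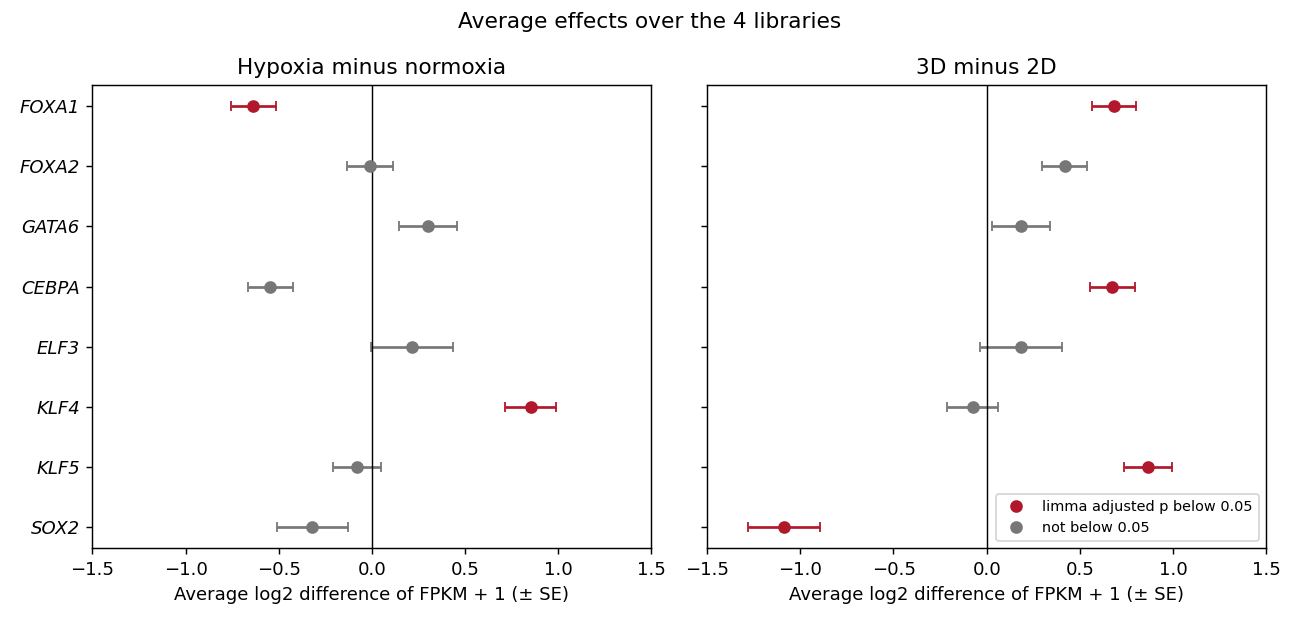
Average log2 difference of FPKM + 1 over the 4 libraries for each factor, hypoxia minus normoxia on the left and 3D minus 2D on the right (points, with bars of 1 SE from limma, red where the adjusted p was below 0.05). KLF4 at 0.85 and FOXA1 at -0.64 are red on the left, and FOXA1, CEBPA, KLF5 and SOX2 are red on the right.

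FOXA2, the close paralog of FOXA1, did not pass the test for hypoxia. It was at 27.1 FPKM in 3D hypoxia and 25.1 in 3D normoxia, and at 18.3 FPKM in 2D hypoxia and 20.2 in 2D normoxia, an average log2 difference of -0.01 ± 0.12 (limma adjusted p = 0.966). FOXA2 stood at 2.66 times the FPKM of FOXA1 in 3D hypoxia against 1.64 in 3D normoxia, and at 3.32 times in 2D hypoxia against 2.06 in 2D normoxia. The difference between the 2 paralogs' responses was not itself tested.

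GATA6 was at 2.55 FPKM in 3D hypoxia and 1.84 in 3D normoxia, and at 2.09 FPKM in 2D hypoxia and 1.54 in 2D normoxia. Both hypoxia libraries lay above both normoxia libraries, and within each culture the log2 ratio exceeded counting error (1.96 SE), at 0.32 with a counting SE of 0.14 in 3D and 0.28 with a counting SE of 0.09 in 2D. The average log2 difference of 0.30 ± 0.16 did not pass (limma adjusted p = 0.289). Levels next to each other in the order, which alternate between cultures, lay within counting error. SOX2 had an average hypoxia difference of -0.32 ± 0.19 (adjusted p = 0.351), KLF5 one of -0.08 ± 0.13 (adjusted p = 0.733) and ELF3 one of 0.22 ± 0.22 (adjusted p = 0.583) by the same limma fit.

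The proximal promoters of KLF4, the factor that rose, and of FOXA1 and CEBPA, which shared an order of libraries, are shown for their letters alone. Each is the 250 bases before the annotated start, from RefSeq on GRCh38.p14, read 5′ to 3′ on the gene's own strand, the minus strand for all of them. Capitals mark ACGTG, the core letters bound by hypoxia-inducible factors, on either strand.
KLF4, chr9:107489770-107490019: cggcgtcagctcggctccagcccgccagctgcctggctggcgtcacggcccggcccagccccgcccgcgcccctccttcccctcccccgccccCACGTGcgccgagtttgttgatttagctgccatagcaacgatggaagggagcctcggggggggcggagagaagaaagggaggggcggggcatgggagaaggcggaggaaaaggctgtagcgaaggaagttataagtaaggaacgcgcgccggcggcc
FOXA1, chr14:37595250-37595499: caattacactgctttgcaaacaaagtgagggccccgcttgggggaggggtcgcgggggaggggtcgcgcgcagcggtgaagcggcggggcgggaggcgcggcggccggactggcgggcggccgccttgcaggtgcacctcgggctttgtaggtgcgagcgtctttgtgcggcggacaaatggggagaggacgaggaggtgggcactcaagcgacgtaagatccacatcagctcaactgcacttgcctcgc
CEBPA, chr19:33302535-33302784: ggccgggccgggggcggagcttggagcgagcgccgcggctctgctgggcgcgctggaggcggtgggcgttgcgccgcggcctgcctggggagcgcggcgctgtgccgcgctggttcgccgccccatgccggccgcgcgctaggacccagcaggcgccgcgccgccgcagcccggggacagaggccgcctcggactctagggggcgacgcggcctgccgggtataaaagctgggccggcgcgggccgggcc

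A promoter entry was found for 7 of the 8 factors, with 2 for KLF5, which gave 8 windows, and FOXA2 had none. ACGTG or its reverse complement CACGT occurred in 1 of these 8 windows, that of KLF4, and in 18.5% of all 35116 promoter windows of the same length. In KLF4 it formed the palindrome CACGTG, in which the motif reads on both strands, 157 bases before the start. That palindrome occurred in 6.34% of all windows. The other form of the core, GCGTG or CACGC, occurred in 0 of the 8 windows and in 32.2% of all. GGGCGG or CCGCCC, the GC box read by Sp and Krüppel-like factors, was found 4 times in the KLF4 window and 2 times in each of those of FOXA1 and CEBPA. It occurred in 5 of the 8 windows, the others being the second of KLF5 and that of SOX2, and in 42.6% of all windows. A forkhead core, TGTTTA or TAAACA, was found in the GATA6 window, 111 bases before its start, and in 3860 of all 35116 windows.

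The next comparison asked how growth on Matrigel, averaged over both oxygen levels, differed from growth on a dish. FOXA1, CEBPA and KLF5 were higher in 3D and SOX2 was lower, by the same limma fit. For all expressed genes 22.0% passed in either direction, 10.4% higher and 11.6% lower, beside 4 of 8 factors. These were 1313 genes higher and 1472 lower, against 767 higher and 3132 lower after rescaling to a common sum. At an unadjusted p below 0.05 there were 5 of the 8, against 40.3% of genes. Both 3D libraries lay above both 2D libraries for 4 of the 8 (25.6% of all expressed genes) and below them for 1 (30.1%). After rescaling to a common sum the first order no longer held for FOXA1 and CEBPA. That rescaling moved the median culture difference of all expressed genes by -0.182, and the share of all genes with this order was not counted on the rescaled values. Inferred depth also moved with culture, being lower in both 3D libraries, and its part in these results was not tested.

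KLF5 was at 48.4 FPKM in 3D hypoxia and 23.5 in 2D hypoxia, and at 46.2 FPKM in 3D normoxia and 27.7 in 2D normoxia. The 3D libraries differed from each other by less than counting error, and each stood well above its 2D counterpart. The average log2 difference, 3D minus 2D, was 0.86 ± 0.13 (limma adjusted p = 0.0143), with linear ratios of 2.06 in hypoxia and 1.67 in normoxia. On the log2(FPKM + 1) scale KLF5 was the 1 factor at least 2-fold higher in 3D among the hypoxia libraries (3.80% of all expressed genes were higher and 6.82% differed either way by as much).

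SOX2 had the widest span of the 8 factors, with its highest FPKM 3.91 times its lowest. It was at 1.32 FPKM in 3D hypoxia and 3.03 in 2D hypoxia, and at 1.36 FPKM in 3D normoxia and 5.15 in 2D normoxia. Both 3D values lay near the limit for expressed genes and rested on about 38 fragments in hypoxia and 41 in normoxia, against 296 in 2D hypoxia and 312 in 2D normoxia. The average log2 difference was -1.09 ± 0.19 (limma adjusted p = 0.0199), an underestimate for low genes because of the pseudocount of 1, since the linear ratios of 3D to 2D were 0.435 in hypoxia and 0.265 in normoxia. In normoxia SOX2 was the 1 factor at least 2-fold lower in 3D (2.49% of all expressed genes were lower and 4.47% differed either way by as much).

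FOXA1 was higher in 3D by 0.68 ± 0.12 on the log2 scale (limma adjusted p = 0.0197), with linear ratios of 1.84 in hypoxia and 1.56 in normoxia. CEBPA was higher by 0.68 ± 0.12 (adjusted p = 0.0202), with linear ratios of 1.70 in hypoxia and 1.76 in normoxia. FOXA2 was also higher in each 3D library than in either 2D library, with linear ratios of 1.48 in hypoxia and 1.24 in normoxia. Its average difference of 0.42 ± 0.12 missed the threshold (limma adjusted p = 0.0612) and passed it only among genes averaging 5 FPKM or more (adjusted p = 0.0404). After rescaling to a common sum the FOXA2 difference was 0.23 (limma adjusted p = 0.2). KLF4 (-0.07 ± 0.14, adjusted p = 0.713), GATA6 (0.18 ± 0.16, adjusted p = 0.42) and ELF3 (0.19 ± 0.22, adjusted p = 0.562) did not pass, and the ELF3 difference was -0.0105 after rescaling to a common sum. The 4 culture calls were lost without the filter on low values.

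On the deposited values FOXA1 and CEBPA stood at similar levels in 3D hypoxia and 2D normoxia. The level of FOXA1 in 3D hypoxia differed from that in 2D normoxia by a log2 value of 0.05 with a counting SE of 0.09, and the same difference for CEBPA was 0.13 with a counting SE of 0.11. Neither exceeded counting error on these values. After rescaling to a common sum, 3D hypoxia lay below 2D normoxia for both genes. The log2 ratio of hypoxia to normoxia in 3D was then -0.69 for FOXA1 and -0.74 for CEBPA. That of 3D to 2D in normoxia was 0.42 for FOXA1 and 0.57 for CEBPA. KLF4 passed for oxygen and KLF5 for culture, but the difference between the responses of these genes was not itself tested. KLF5 stood at 8.21 times the FPKM of KLF4 in 3D hypoxia against 18.1 in 3D normoxia, and at 4.07 times in 2D hypoxia against 9.18 in 2D normoxia.

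The last comparison was whether the response to hypoxia differed between cultures, which 4 libraries cannot test. ELF3 had the largest difference of the 8. It was at 176.4 FPKM in 3D hypoxia and 111.8 in 3D normoxia, and at 114.1 FPKM in 2D hypoxia and 133.2 in 2D normoxia. The log2 ratio of hypoxia to normoxia was 0.65 in 3D and -0.22 in 2D, a difference of 0.87 with a counting SE of 0.03. On the deposited values the 3D hypoxia library stood apart from the other 3, and the 3D normoxia and 2D hypoxia levels lay within counting error of each other. After rescaling to a common sum the log2 ratio of hypoxia to normoxia was 0.52 in 3D and -0.36 in 2D. That of 3D to 2D in normoxia was then -0.45, so 2D normoxia came nearer to 3D hypoxia. A difference of at least 2-fold between the responses was seen in 2.73% of all expressed genes and in 0 of the 8 factors.

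SOX2 had a log2 ratio of -0.03 in 3D, where both levels were near the limit, and -0.61 in 2D. The counting SE of the difference between them, 0.58, was 0.21. KLF5 had ratios of 0.07 in 3D and -0.23 in 2D, and the 3D ratio turned to -0.06 after rescaling to a common sum. FOXA1 (-0.54 in 3D and -0.73 in 2D), CEBPA (-0.59 and -0.50), KLF4 (0.95 and 0.75) and GATA6 (0.32 and 0.28) had ratios of the same sign in both cultures. With SOX2 this held for 5 of the 8 factors, and for 70.8% of all expressed genes.

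**Figure D3:**
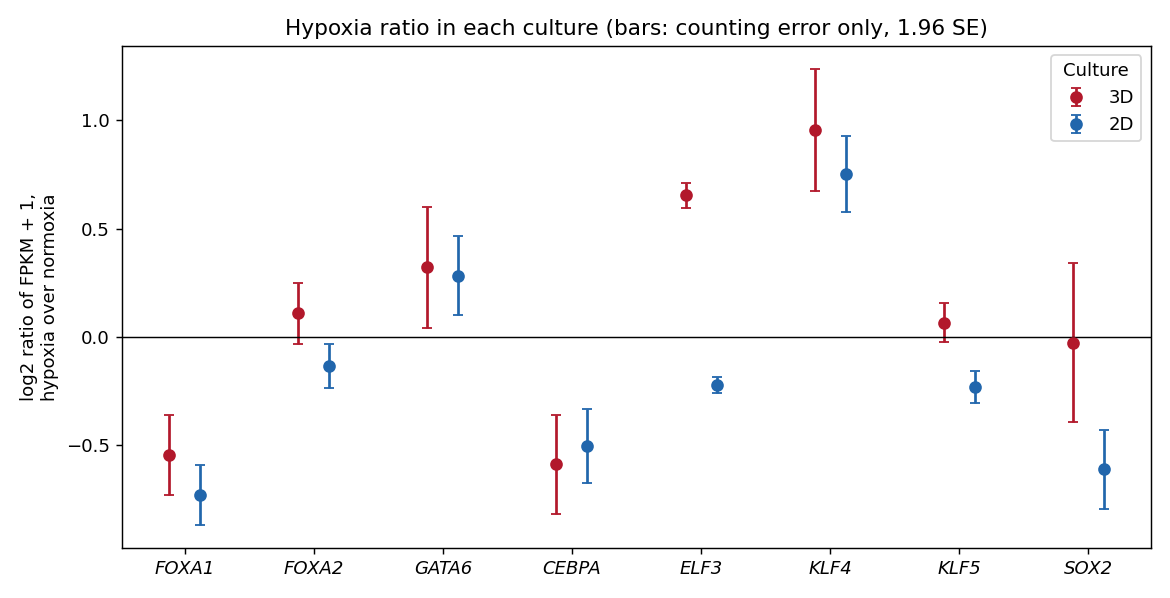
Log2 ratio of FPKM + 1, hypoxia over normoxia, for each factor in 3D (red) and 2D (blue), 1 library per condition, with bars of 1.96 counting SE. ELF3 lies at 0.65 in 3D and -0.22 in 2D, while KLF4, GATA6, FOXA1 and CEBPA lie on the same side of 0 in both cultures.

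Transcripts that overlap or neighbour the factors were read after their values were seen. SOX2-OT, whose locus contains SOX2, was listed at 0 in 3 libraries and at 0.016 FPKM in 2D hypoxia. GATA6-AS1, antisense to GATA6, was at 0.405 FPKM in 3D hypoxia and 0.146 in 3D normoxia, and at 0.237 FPKM in 2D hypoxia and 0.119 in 2D normoxia. CEBPA-AS1 was at 0.923 FPKM in 3D hypoxia and 1.81 in 3D normoxia, and at 1.04 FPKM in 2D hypoxia and 2.04 in 2D normoxia, a hypoxia difference of -0.56 ± 0.17 that did not pass (limma adjusted p = 0.124). The strand setting of the authors' counting is unknown here, so fragments of CEBPA-AS1 or GATA6-AS1 and of the sense gene may not be told apart where they overlap. LINC00261, the noncoding neighbour of FOXA2, was at 2.31 FPKM in 3D hypoxia and 0.352 in 2D hypoxia, and at 2.99 FPKM in 3D normoxia and 0.885 in 2D normoxia. Its log2 difference was 1.19 ± 0.18 (limma adjusted p = 0.0143), but it passed the filter on low values only through the 3D libraries, since its 2D mean was 0.619 FPKM, so the p is no support for a difference.

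Among 43 relatives from the same families, 27 were expressed. Under hypoxia 2 of them rose (3.20% of all expressed genes), 3 fell (1.64%) and 22 did not pass by limma. KLF6 (1.11 ± 0.16, adjusted p = 0.0278) and KLF7 (1.42 ± 0.12, adjusted p = 0.00802), other Krüppel-like factors, also rose. FOXA3, the remaining FOXA paralog, fell by 1.34 on the log2 scale (SE 0.17, adjusted p = 0.0222). EHF and SPDEF, epithelial ETS factors related to ELF3, of which SPDEF drives goblet cell differentiation, fell by 1.33 (SE 0.18, adjusted p = 0.0245) and 1.99 (SE 0.33, adjusted p = 0.0368). SPDEF was at 18.2 FPKM in 3D hypoxia and 45.0 in 3D normoxia, and at 2.04 FPKM in 2D hypoxia and 19.0 in 2D normoxia. Its hypoxia call was lost on a common median (adjusted p = 0.0608) and without trend in limma (adjusted p = 0.0557). The median hypoxia difference of the 27 was 0.10, against -0.01 for all expressed genes, and it was -0.02 after rescaling to a common sum.

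In 3D against 2D, 7 relatives were higher (10.4% of all expressed genes), 1 was lower (11.6%) and 19 did not pass. The higher ones were EHF (1.84 ± 0.18), SPDEF (1.93 ± 0.33), KLF2 (1.42 ± 0.37), SOX9 (1.19 ± 0.13), FOXA3 (0.83 ± 0.17), KLF13 (0.78 ± 0.11) and SOX13 (0.59 ± 0.13), with limma adjusted p between 0.00795 for EHF and 0.0455 for KLF2. SOX9, a factor of distal lung progenitors, was at 24.4 FPKM in 3D hypoxia and 11.3 in 2D hypoxia, and at 32.3 FPKM in 3D normoxia and 12.2 in 2D normoxia. SOX4, like SOX2, was lower in 3D (-0.60 ± 0.14, adjusted p = 0.0361). The SOX4 call was lost on a common median (adjusted p = 0.0543) and without trend (adjusted p = 0.0507), and that of SOX13 after rescaling to a common sum (adjusted p = 0.055). KLF2 stood at 14.5 FPKM in 3D hypoxia and 2.26 in 2D hypoxia, and at 7.19 FPKM in 3D normoxia and 4.41 in 2D normoxia, so that its hypoxia ratios ran in opposite directions in the 2 cultures. The KLF2 call was lost under 5 of 7 alternatives (adjusted p = 0.0534 after rescaling to a common sum). The median culture difference of the 27 was 0.17, against -0.03 for all expressed genes, and it was 0.014 after rescaling to a common sum.

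**Figure D4:**
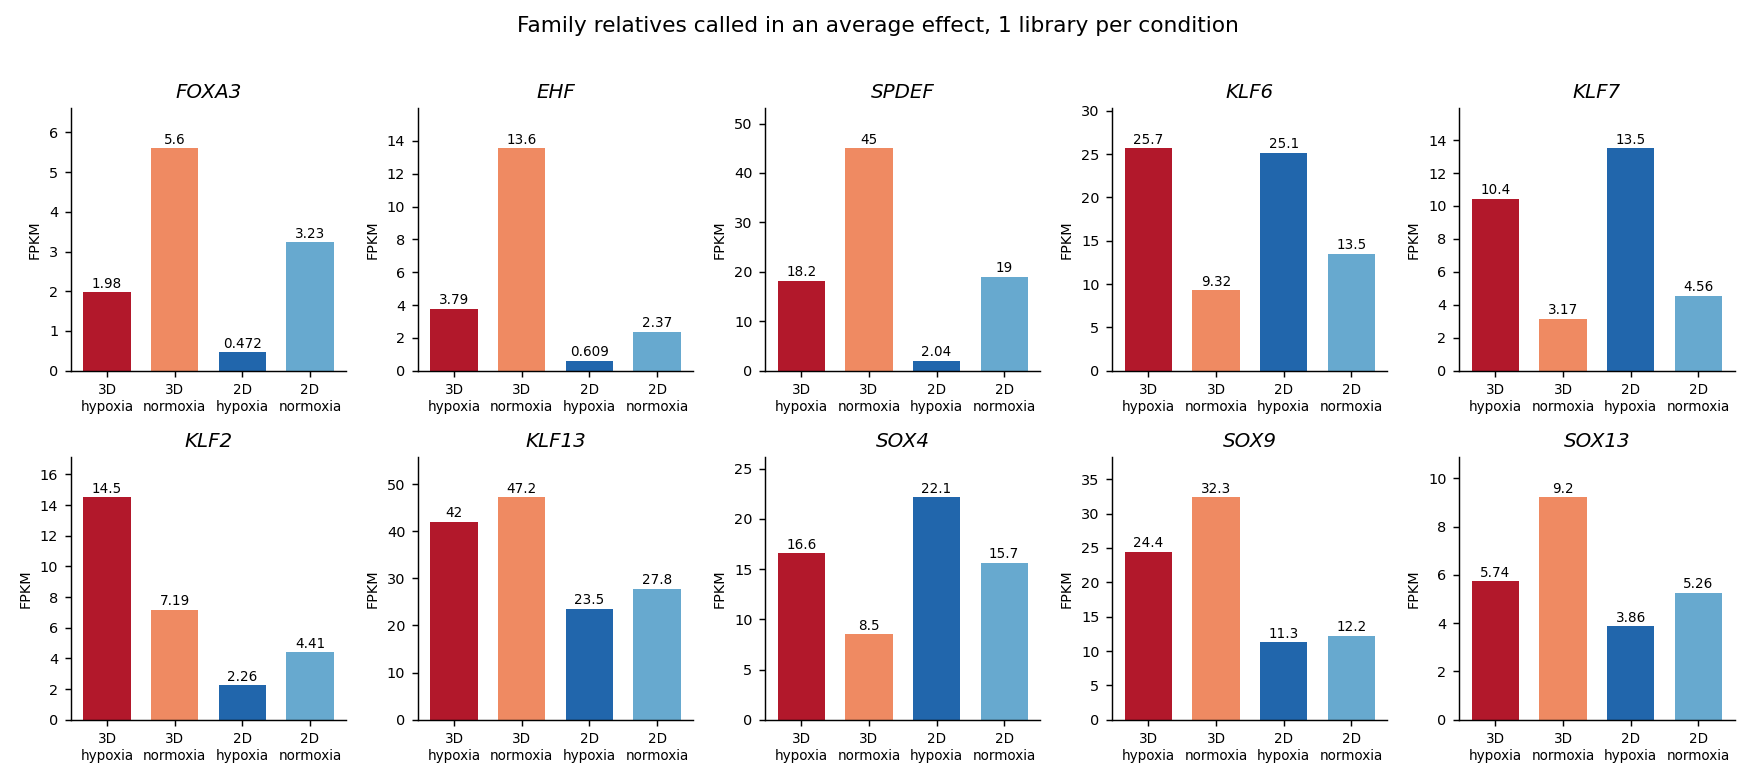
FPKM of the 10 family relatives called in either average effect, in each library (1 bar per library, vertical axes from 0 and scaled to each gene). FOXA3, EHF and SPDEF are lowest in 2D hypoxia and highest in 3D normoxia, while KLF6 and KLF7 are high in both hypoxia libraries.

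FOXA3, EHF and SPDEF had the order of libraries seen for FOXA1 and CEBPA at its ends, highest in 3D normoxia and lowest in 2D hypoxia. FOXA3 was at 1.98 FPKM in 3D hypoxia and 5.60 in 3D normoxia, and at 0.472 FPKM in 2D hypoxia and 3.23 in 2D normoxia. FOXA1 thus stood at 5.15 times the FPKM of FOXA3 in 3D hypoxia against 2.73 in 3D normoxia, and at 11.7 times in 2D hypoxia against 3.04 in 2D normoxia.

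Of 29 other transcription factors of epithelia, 16 were expressed. Under hypoxia NR5A2 (0.91 ± 0.12, limma adjusted p = 0.0245) and ID2 (0.73 ± 0.12, adjusted p = 0.0337) rose, ETV4 (-1.07 ± 0.18, adjusted p = 0.0401) and GRHL3 (-1.08 ± 0.19, adjusted p = 0.0421) fell, and 12 did not pass. Among all expressed genes 3.20% rose and 1.64% fell. NR5A2 is a nuclear receptor of gut and pancreas, ID2 an inhibitor of basic helix-loop-helix factors found in distal lung progenitors, ETV4 an ETS factor downstream of FGF signalling, and GRHL3 a grainyhead factor of surface epithelia. GRHL3 passed the filter on low values only through the normoxia libraries, with means of 0.357 FPKM in hypoxia and 1.86 in normoxia, so its p is no support for a difference. In 3D against 2D, ETV4 (1.78 ± 0.18, adjusted p = 0.00856) and ID2 (1.25 ± 0.12, adjusted p = 0.00683) were higher and 14 did not pass. Among all expressed genes 10.4% were higher and 11.6% lower. The median of the 16 was 0.02 for hypoxia, against -0.01 for all expressed genes, and -0.000569 for culture, against -0.03. After rescaling to a common sum these medians were -0.10 and -0.15. On a common median the hypoxia calls of ID2 (adjusted p = 0.0506), ETV4 (adjusted p = 0.0625) and GRHL3 (adjusted p = 0.06) were lost. Those of ID2 (adjusted p = 0.0531) and ETV4 (adjusted p = 0.0619) were also lost without trend, and that of GRHL3 at a pseudocount of 0.1 (adjusted p = 0.0583). HNF4A, a nuclear receptor of endoderm, was expressed throughout, at 7.85 to 11.4 FPKM, and passed in neither effect.

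**Figure D5:**
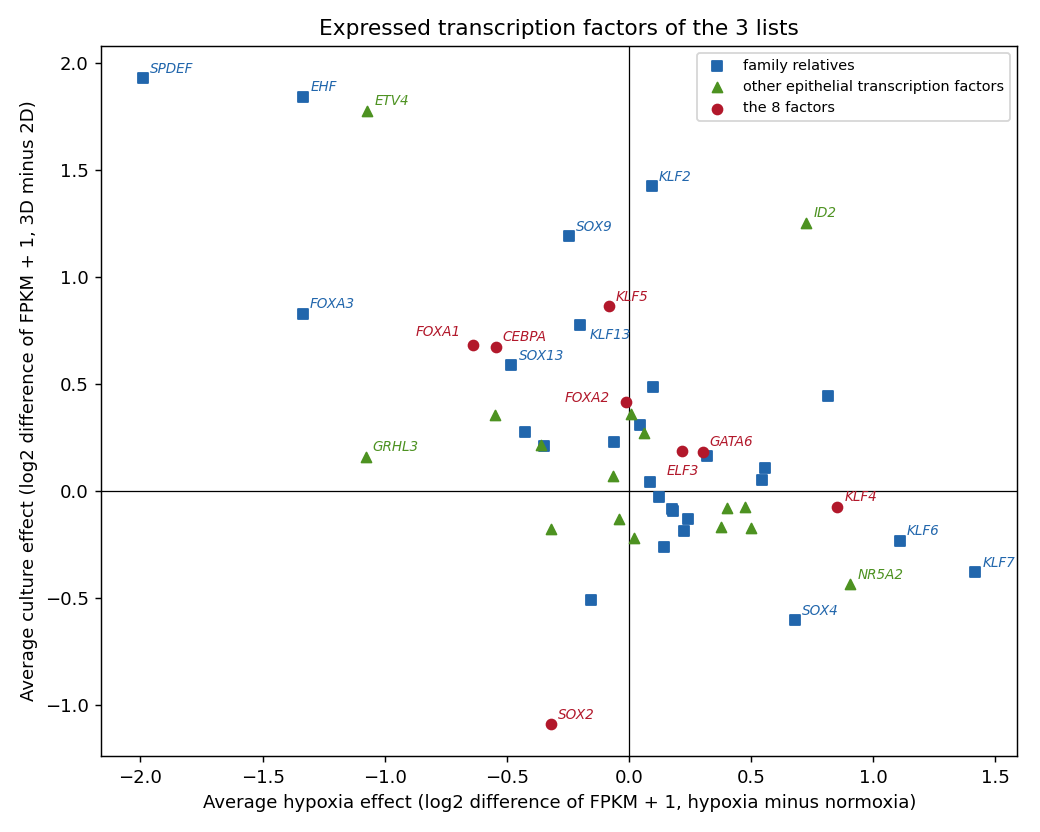
Average hypoxia effect (horizontal, hypoxia minus normoxia) against average culture effect (vertical, 3D minus 2D), both as log2 differences of FPKM + 1 from limma over 4 libraries, for the 8 factors (red circles), 27 expressed relatives (blue squares) and 16 other epithelial transcription factors (green triangles). Labels are given to the 8 factors and to genes called in either effect. FOXA1, CEBPA, FOXA3, EHF, SPDEF and ETV4 lie at the upper left, as do SOX9, SOX13, KLF13, KLF5, FOXA2 and GRHL3. KLF6, KLF7, SOX4 and NR5A2 lie at the lower right, with KLF4 near the horizontal axis (culture effect -0.07).

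Genes that such factors are known to serve were listed by tissue. Of 16 products of lung epithelium 4 were expressed, and SFTPB and SFTPC, the classical surfactant protein genes of alveolar type II cells, were at most 0.0143 FPKM (SFTPB) and 0.1 FPKM (SFTPC) in any library. LPCAT1, a surfactant lipid enzyme, rose under hypoxia (1.39 ± 0.13, limma adjusted p = 0.00936) and the other 3 did not pass. LPCAT1 was lower in 3D (-0.67 ± 0.13, adjusted p = 0.0231) and so was the surfactant lipid transporter ABCA3 (-0.53 ± 0.12, adjusted p = 0.0319). Of all expressed genes, 3.20% rose under hypoxia and 11.6% were lower in 3D. The protease NAPSA and the alveolar type I marker AGER, the other expressed products, passed in neither effect. Medians of the 4 were 0.13 for hypoxia, or 0.00464 after rescaling to a common sum, and -0.53 for culture. Of 15 gastric and intestinal products 4 were expressed. The intestinal cadherin CDH17 (1.30 ± 0.16, adjusted p = 0.0108) and the mucosal peptide TFF1 (2.40 ± 0.53, adjusted p = 0.032) were higher in 3D, and by limma 0 of the 4 passed under hypoxia, with 1, CDH17, at an unadjusted p under 0.05. Of all expressed genes 10.4% were higher in 3D. Under hypoxia 4.84% of them passed and 25.6% had an unadjusted p under 0.05. TFF1 was at 20.7 FPKM in 3D hypoxia and 0.755 in 2D hypoxia, and at 5.78 FPKM in 3D normoxia and 2.02 in 2D normoxia. Its hypoxia ratios thus ran in opposite directions in the 2 cultures. VIL1, a microvillus protein, and LGALS4, a gut lectin, passed in neither effect. Medians of these 4 were 0.08 for hypoxia, or -0.05 after rescaling to a common sum, and 0.89 for culture. LGALS4 passed the filter on low values only through the 3D normoxia library, at 2.15 FPKM. It was at 0.749 FPKM in 3D hypoxia, 0.919 in 2D hypoxia and 0.493 in 2D normoxia. These medians, which include LGALS4, are thus no support for a difference.

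POU5F1, partner of KLF4 and SOX2 in pluripotency, rose under hypoxia by 1.75 ± 0.13 (limma adjusted p = 0.0066), and its value is uncertain because of its many pseudogene copies. Of 6 such partners it and SALL4 were expressed, NANOG was at most 0.13 FPKM, and by limma 0 passed for culture, with 1, SALL4, at an unadjusted p under 0.05. Of all expressed genes 3.20% rose under hypoxia. For culture 22.0% of them passed and 40.3% had an unadjusted p under 0.05. The medians of the 2 were 0.80 for hypoxia and -0.39 for culture. SALL4 was at 0.829 FPKM in 3D hypoxia and 0.841 in 3D normoxia, and at 1.35 FPKM in 2D hypoxia and 1.88 in 2D normoxia. It passed the filter on low values only through the 2D libraries. Its p for culture and the culture median are thus no support for a difference. Of 8 factors of epithelial-mesenchymal transition 4 were expressed, with medians of 0.00347 for hypoxia, or -0.09 after rescaling to a common sum, and -0.08 for culture. SNAI3 and TWIST1 passed in neither effect. TWIST2 was higher in 3D (0.95 ± 0.13, limma adjusted p = 0.013), and by limma 0 of the 4 passed under hypoxia, with 1, ZEB1, at an unadjusted p under 0.05. Of all expressed genes 10.4% were higher in 3D. Under hypoxia 4.84% of them passed and 25.6% had an unadjusted p under 0.05.

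Some markers of other cell types differed between cultures. CD68, a macrophage marker also found in lysosomes of other cells, was at 31.2 FPKM in 3D hypoxia and 13.1 in 2D hypoxia, and at 31.6 FPKM in 3D normoxia and 20.2 in 2D normoxia (limma adjusted p = 0.0209). Of all expressed genes 10.4% were called higher in 3D and 22.0% in either direction. Of the 6 blood cell markers CD68 and ITGAM were expressed, CD3E was listed at 0 in every library, and the list summed to 33.3 FPKM in 3D hypoxia and 13.7 in 2D hypoxia, and to 32.6 FPKM in 3D normoxia and 21.1 in 2D normoxia. Of the 7 fibroblast markers COL1A1 alone was expressed, at 0.614 FPKM in 3D hypoxia and 13.2 in 2D hypoxia, and at 0.856 FPKM in 3D normoxia and 2.32 in 2D normoxia (limma adjusted p = 0.0436, or 0.0616 on a common median and 0.0555 without trend). COL1A1 passed the filter on low values only through the 2D libraries, so this p is no support for a difference. The part of these markers in the culture results was not tested. In bulk RNA, fewer cells with a factor and less of its RNA per cell cannot be told apart.

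Genes with the most similar profile were sought for the 4 factors whose log2(FPKM + 1) ranged by at least 1, among the 9002 genes averaging 5 FPKM or more that are not small RNA, LOC or LINC symbols, by the Euclidean distance of centred values over the 4 libraries. For FOXA1 they were NR1H3 (distance 0.058), PRR7 (0.127) and KCNAB2 (0.134), and for CEBPA they were CBR1 (0.088), KCTD6 (0.089) and CAMK2D (0.089). NR1H3, a sterol-sensing nuclear receptor, was at 7.81 FPKM in 3D hypoxia and 12.6 in 3D normoxia, and at 4.27 FPKM in 2D hypoxia and 7.67 in 2D normoxia. For KLF5 the nearest were DHRS4 (0.031), NUDT8 (0.059) and ZNF524 (0.081). For SOX2 they were CBS (0.075), PROCR (0.176) and BASP1 (0.232). With 4 libraries many genes share a profile, so these names describe likeness alone.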

How the data were processed

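RNA from 4 A549 cultures was measured by RNA-seq, with 1 library each for 3D hypoxia, 3D normoxia, 2D hypoxia and 2D normoxia. The labels' protocols name a miRNeasy Micro kit for RNA and a TruSeq Stranded mRNA kit for libraries. The authors deposited FPKM per gene symbol, and the submitters' processing notes list Cuffdiff 2.2.1, SAMtools 0.1.18, TopHat2 2.1.1, Bowtie2 2.2.8 and the build hg19. Annotation, scaling and strand setting: not given in the sources used here.

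Values were taken as log2(FPKM + 1), and those averaging 1 FPKM or more over the 4 libraries were kept. To all of them limma 3.58.1 in R 4.3.3 was fitted (trend, prior degrees of freedom 4.67, adjusted p below 0.05). A trial on simulated data used additive effects and variances drawn from the fit itself, so it cannot show that the p-values hold here. Python 3.11.15 did the rest. Nothing says that the libraries came from separate experiments, and no spread between replicates enters the SE or p-values. The 1 residual degree of freedom is the departure of the 4 libraries from additive effects, which limma combines with a prior from all genes. A hypoxia response that differs between cultures is therefore counted as error. ELF3, with a difference between responses of 0.87, had an SE of 0.22 in both average effects. Differences between single libraries have no test. Library depth is an estimate: the FPKM that 1 fragment is worth was read from the densest cluster of low length-corrected values of 2134 genes with a single GENCODE 29 transcript over 1000 bases. Counting errors derived from it cover sampling of fragments only. Other genes are named where called, or as up to 4 per list of the widest range. NKX2-1, HNF4A, SFTPB, SFTPC, NANOG, EPCAM, CD3E and the neighbouring transcripts were singled out after their values were seen. Alternatives were pseudocounts of 0.1 and 0.5, no filter, a 5 FPKM minimum, libraries rescaled to a common sum of 1000000 or to a common median over expressed genes, and limma without trend. The factors, lists and tests were chosen with earlier results of these data known.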

Additional observations from a re-analysis of the deposited data

Results flagged for a closer look

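ELF3 differed in the direction of its hypoxia response between the cultures. Its log2 ratio of hypoxia to normoxia was 0.653 in 3D and -0.221 in 2D, and, by the same values, its ratio of 3D to 2D was 0.623 in hypoxia and -0.25 in normoxia. FOXA2 also had opposite signs, with a hypoxia ratio of 0.108 in 3D, within counting error, and -0.132 in 2D. After rescaling to a common sum the FOXA2 ratio in 3D was -0.02. With 1 library per condition, neither difference was tested.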

How the results depend on the processing

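No paired analysis was possible because each group has 1 library and the labels give no replicate numbers. Rescaling to a sum of 1000000 moved the median of all genes by -0.125 for hypoxia and -0.182 for culture, and turned the culture difference of ELF3 to -0.0105 (adjusted p = 0.975).

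Average hypoxia effect. Of all genes, 405 were called higher and 208 lower. Without the filter on low values 0 and 0 were called, on a common median 211 and 93, and without trend 254 and 112. With a 5 FPKM minimum 507 were higher and 313 lower, and after rescaling to a sum of 1000000 303 were higher and 475 lower. Of the 8 factors, 1 was called higher and 1 lower. Called higher were 0 without the filter, with a 5 FPKM minimum (which removes GATA6, KLF4 and SOX2) and on a common median. Called lower were 0 at a pseudocount of 0.5, without the filter, on a common median and without trend, and 2 after rescaling to a sum of 1000000.

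Average culture effect. Of all genes, 1313 were called higher and 1472 lower, 0 and 0 without the filter, and 767 and 3132 after rescaling to a sum of 1000000. Of the factors 3 were called higher and 1 lower, 0 and 0 without the filter, and 0 lower with a 5 FPKM minimum.

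Single pairs, at least 2-fold. For hypoxia in 3D, 141 genes were lower, with 227 at a pseudocount of 0.1, 81 with a 5 FPKM minimum and 236 after rescaling to a sum of 1000000. In that pair 1 factor, KLF4, was higher at a pseudocount of 0.1 or 0.5 and 0 otherwise. For hypoxia in 2D, 201 genes were lower, with 351 at a pseudocount of 0.1 and 341 after rescaling to a sum of 1000000. For 3D against 2D in hypoxia, 383 genes were lower, with 599 at a pseudocount of 0.1, 250 with a 5 FPKM minimum and 731 after rescaling. There 0 factors were higher after rescaling, in place of 1, and 1 factor, SOX2, was lower at a pseudocount of 0.1 or after rescaling, in place of 0. For 3D against 2D in normoxia, 251 genes were higher and 315 lower, with 390 and 534 at a pseudocount of 0.1 and 704 lower after rescaling. There 0 factors were lower with a 5 FPKM minimum, in place of 1.

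The cause of these differences was not tested, other than the removal of genes by the filters.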
